A study of Mus musculus with 2 samples.

Results

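The replication-dependent histone genes were taken as the protein-coding genes of GENCODE mouse release 21 whose symbols start with Hist1h, Hist2h, Hist3h or Hist4h. That rule gave 67 of 21853 protein-coding genes, and it used names alone, no measured value. They were 6 H1, 18 H2A, 18 H2B, 12 H3 and 13 H4 genes. The Hist1 cluster on chromosome 13 held 54 of them, the Hist2 cluster on chromosome 3 held 10, Hist3 on chromosome 11 held 2 and Hist4 on chromosome 6 held 1.

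Open chromatin was measured by ATAC-seq, a method in which a transposase cuts exposed DNA, in primary T cells of the mouse strain C57BL/6NJ. There was 1 group of 2 libraries, which the labels number as biological replicates 1 and 2 under a single donor record, so whether they came from separate animals is not known. The animals' age is recorded as unknown, no treatment or genotype is given, and a linked protocol concerns the differentiation of CD4+ T cells. Words in the peak names of both files (Th0, 72hrs, ASTARR.insert, masked) are not explained in the sources used here. With no other group, nothing could be compared between conditions, and no p-value is given.

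Core histones H2A, H2B, H3 and H4 form the spool around which nucleosomal DNA is wound, and linker histone H1 binds where the DNA enters and leaves it. Most of this protein is made while DNA is copied, from many small, nearly intronless genes that lie together in clusters. Their messages end in a conserved stem-loop instead of a poly(A) tail, the stem-loop-binding protein Slbp holds that end, and Npat, a substrate of cyclin E and Cdk2, activates the genes in a nuclear body formed at the clusters. H2A and H2B genes often stand head to head and share the DNA between their starts.

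The stem-loop was used to check that the genes chosen by name belong to this class. The histone stem-loop consensus was found within 200 bases after the last coding base in 62 of the 67 genes: in 6 of 6 H1, 17 of 18 H2A, 14 of 18 H2B, 12 of 12 H3 and 13 of 13 H4 genes. It lay a median of 32 bases after the coding end. The genes with no match in that window were Hist1h2an, Hist1h2bp, Hist1h2bq, Hist1h2br and Hist2h2be. Below are the 3 commonest forms in the mm10 genome, with the paired stem in capitals and the loop in lower case.
The form in 38 genes, all of them H1, H2A, H2B or H3: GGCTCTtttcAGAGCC
The form in 9 genes, Hist1h3e and the testis genes Hist1h1t and Hist1h2ba among them: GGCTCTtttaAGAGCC
The form in 8 genes, all of them H4: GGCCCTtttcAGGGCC
The H4 form differed from the others in the stem, and the stem kept its pairing.

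The DNA in front of the genes carried recurring short sequences. These were searched on both strands from 250 bases before to 50 after the GENCODE start: TATAAA of the TATA box, CCAAT bound by NF-Y, ATTTGCAT, the octamer bound by Oct-1 (Pou2f1), and AAACACA of the H1 box. None of the 4 contains another, though TATAAA and its reverse complement can overlap. CCAAT was present at 18 of 18 H2A, 18 of 18 H2B, 11 of 12 H3 and 5 of 6 H1 genes, but at 4 of 13 H4 genes, against 39.0% of all protein-coding genes. TATAAA was present at 37 of the 67 (55.2%) against 12.7% of all genes. The octamer was found at 8 of 18 H2B and 7 of 18 H2A genes and at none of the H1, H3 or H4 genes, against 1.57% of all genes. The H2A and H2B counts are not independent, since a match between head-to-head starts can count for both genes, CCAAT included. The DNA of Hist1h2ba–Hist1h2aa, Hist1h2ac–Hist1h2bc, Hist1h2ae–Hist1h2bg, Hist1h2ah–Hist1h2bk and Hist2h2ac–Hist2h2be each held 1 octamer match, counted under both types. The H1 box stood at 4 of 6 H1 genes, namely Hist1h1b, Hist1h1c, Hist1h1e and Hist1h1t, and at 5 of the 61 core histone genes, against 6.40% of all genes. Around the starts of a second annotation, RefSeq, it stood at 5 of 6 H1 genes (7.17% of all genes). CCAAT was present there at 6 of 6 H1 genes (42.3% of all genes). Hist1h1d, whose RefSeq start lies elsewhere, had both matches there. A match is a stretch of letters, and binding was not measured.

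The sequences below are those on which the results turn, with the same 4 motifs in capitals on either strand. The first is the DNA between the starts of the pair with the highest signal among the divergent pairs described below. The next is that of the pair with the narrowest region. Then come the 2 pairs that are copies of each other and had no region, the second read on the minus strand so that the copies run alike. These are genome sequence of mm10 between the GENCODE starts.
Hist1h2ac–Hist1h2bc, chr13:23683949-23684198, plus strand: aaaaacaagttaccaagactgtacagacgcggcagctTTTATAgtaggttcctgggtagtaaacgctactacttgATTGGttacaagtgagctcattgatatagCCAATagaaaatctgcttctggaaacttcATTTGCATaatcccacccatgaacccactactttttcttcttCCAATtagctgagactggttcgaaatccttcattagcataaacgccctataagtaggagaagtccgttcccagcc
Hist1h2bf–Hist1h2ad, chr13:23574197-23574380, plus strand: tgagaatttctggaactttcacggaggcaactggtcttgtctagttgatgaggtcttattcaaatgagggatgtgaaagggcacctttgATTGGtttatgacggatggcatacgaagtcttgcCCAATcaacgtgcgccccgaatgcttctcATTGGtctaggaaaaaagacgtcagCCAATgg
Hist1h2bq–Hist1h2ao, chr13:21810198-21810464, plus strand: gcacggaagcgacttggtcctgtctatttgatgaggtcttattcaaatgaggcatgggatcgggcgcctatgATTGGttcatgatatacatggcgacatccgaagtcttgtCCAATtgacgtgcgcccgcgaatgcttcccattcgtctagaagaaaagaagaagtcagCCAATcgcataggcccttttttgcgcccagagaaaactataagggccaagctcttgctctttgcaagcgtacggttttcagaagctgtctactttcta
Hist1h2ap–Hist1h2br, chr13:21833508-21833742, minus strand: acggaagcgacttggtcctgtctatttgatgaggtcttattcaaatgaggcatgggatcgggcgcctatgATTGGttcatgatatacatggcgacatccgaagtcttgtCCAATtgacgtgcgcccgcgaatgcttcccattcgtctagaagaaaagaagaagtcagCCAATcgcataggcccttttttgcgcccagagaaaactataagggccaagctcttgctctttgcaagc
The Hist1h2ac–Hist1h2bc interval held 1 TATAAA, 3 CCAAT and 1 octamer match, and the Hist1h2bf–Hist1h2ad interval held 4 CCAAT matches and none of the others. Each of the copied intervals held 3 CCAAT matches and no TATAAA or octamer match.

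The next stretches are the 250 bases before the RefSeq start (promoter table of GRCm38.p6, the assembly of mm10), in the direction of transcription. They show an H1 gene with a region and the testis H1 gene without, the testis H2B gene, the H3 genes with the highest and lowest signal, and a near-identical H4 pair whose signals differed. RefSeq entries were matched by symbol for 62 of the 67 genes. Hist1h2bc, Hist1h3a, Hist1h3f, Hist2h2be and Hist2h4 had no entry.
Hist1h1c, chr13:23738557-23738806, plus strand: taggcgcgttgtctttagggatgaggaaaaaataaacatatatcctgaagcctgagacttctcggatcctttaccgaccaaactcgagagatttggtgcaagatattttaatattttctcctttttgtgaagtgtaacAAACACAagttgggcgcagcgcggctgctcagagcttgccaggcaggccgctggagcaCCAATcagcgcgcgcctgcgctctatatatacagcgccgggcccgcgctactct
Hist1h1t, chr13:23695561-23695810, plus strand: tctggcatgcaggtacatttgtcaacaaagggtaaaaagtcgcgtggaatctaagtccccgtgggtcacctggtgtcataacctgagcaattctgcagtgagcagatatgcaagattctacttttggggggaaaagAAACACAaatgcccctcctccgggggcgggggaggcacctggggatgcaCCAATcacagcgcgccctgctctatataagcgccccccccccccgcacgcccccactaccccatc
Hist1h2ba, chr13:23934157-23934406, minus strand: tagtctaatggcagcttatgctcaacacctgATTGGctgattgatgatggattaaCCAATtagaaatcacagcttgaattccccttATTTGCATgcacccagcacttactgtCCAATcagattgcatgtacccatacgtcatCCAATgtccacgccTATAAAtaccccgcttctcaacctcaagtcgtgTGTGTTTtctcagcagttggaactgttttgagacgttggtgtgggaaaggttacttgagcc
Hist1h3e, chr13:23562386-23562635, minus strand: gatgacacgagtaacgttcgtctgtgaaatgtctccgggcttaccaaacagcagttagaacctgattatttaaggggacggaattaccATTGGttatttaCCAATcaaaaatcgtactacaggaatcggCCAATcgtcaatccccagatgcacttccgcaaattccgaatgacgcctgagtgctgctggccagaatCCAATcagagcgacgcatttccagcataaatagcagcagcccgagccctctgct
Hist1h3d, chr13:23575513-23575762, plus strand: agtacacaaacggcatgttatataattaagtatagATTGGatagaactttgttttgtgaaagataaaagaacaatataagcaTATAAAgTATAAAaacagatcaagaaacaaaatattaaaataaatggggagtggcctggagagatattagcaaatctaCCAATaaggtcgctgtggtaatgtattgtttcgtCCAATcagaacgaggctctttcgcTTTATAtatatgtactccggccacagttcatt
Hist1h4j, chr13:21734784-21735033, plus strand: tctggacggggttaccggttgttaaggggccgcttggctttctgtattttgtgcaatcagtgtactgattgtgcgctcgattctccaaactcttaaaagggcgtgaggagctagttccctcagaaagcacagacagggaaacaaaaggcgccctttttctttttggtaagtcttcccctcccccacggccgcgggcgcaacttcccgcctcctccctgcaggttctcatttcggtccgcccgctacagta
Hist1h4k, chr13:21750554-21750803, minus strand: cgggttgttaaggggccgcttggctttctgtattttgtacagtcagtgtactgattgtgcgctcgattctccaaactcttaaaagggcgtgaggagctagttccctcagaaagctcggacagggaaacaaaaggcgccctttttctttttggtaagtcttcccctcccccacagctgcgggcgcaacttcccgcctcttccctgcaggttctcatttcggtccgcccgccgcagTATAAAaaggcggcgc

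Regions were the authors' peaks, 78016 in replicate 1 and 74653 in replicate 2 on the standard chromosomes. Each carried a signal, read from its values as fold over local background, a −log10 q and a width. A gene was counted as having a region if an edge lay within 1000 bp of any of its coding transcripts' starts in both libraries, and its strongest such region gave its values. The depth of the libraries is unknown, so a missing region cannot be told from one below the authors' threshold. As a check of the labelled cell type, 7 T-cell genes were tested (Cd3e, Cd3d, Cd3g, Cd2, Cd5, Lck and Zap70). All had a region, with signals from 2.45 to 9.91 in replicate 1. Alb, Lyz2, Ms4a1, Hba-a1 and Myh1, markers of liver, myeloid, B, red and muscle cells, had none. Repetition was described by words, short stretches of DNA defined under processing. Around the Hba-a1 start only 31.2% of words occur at a single place in the genome, against 92.8% to 100% at the other markers. The part of repetition in the missing region of Hba-a1 was not tested.

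A region was found in both libraries at 59 of the 67 histone genes (88.1%), against 65% of all protein-coding genes. No histone gene had one in a single library. The remaining 8 had none in either. A region covered the start base itself at 53 of the 67 (79.1%), against 60.5% of all genes. Under the stricter −log10 q of at least 5, all 59 were retained (63.7% of all genes), and among the 50000 strongest regions of each library 47 were retained (58.8% of all genes). Histone genes are short, with a median length of 539 bp, so a region near the start often spans the gene: 32 of the 67 were covered from end to end in both libraries. Of the 60 histone genes up to 2537 bp long, 55 had a region, and of the 1971 other protein-coding genes up to that length 577 (29.3%) had one, 205 of these 1971 being olfactory, vomeronasal or taste receptor genes.

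Counted by gene, the regions at histone genes were low in signal and, except at H4 genes, wide. Their median signal was 7.12 in replicate 1 and 7.10 in replicate 2, where all genes with a region had medians of 11.4 and 10.8. The median histone gene stood at the 18.80th percentile of signal among genes with a region in replicate 1 and at the 20.04th in replicate 2. Median width was 1992 bp and 1924 bp, against 1259 bp and 1245 bp over all genes, which placed the median histone gene at the 90.9th and 89.8th percentiles. By type, the median width percentile in replicate 1 was 90.3 for H1, 92.3 for H2A, 92.3 for H2B and 92.5 for H3, but 55.8 for H4, whose median widths were 1322 bp and 1349 bp. Median −log10 q was 300.3 and 217.7, against 173.6 and 121.5. These values rest on fewer regions than genes, since 59 genes drew their values from 39 distinct regions. Over the 41 regions within 1000 bp of a histone start, each counted 1 time, median width was 1669 bp and 1731 bp. The plot of signal against width shows most histone genes low and to the right of the gene cloud.

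**Figure D1:**
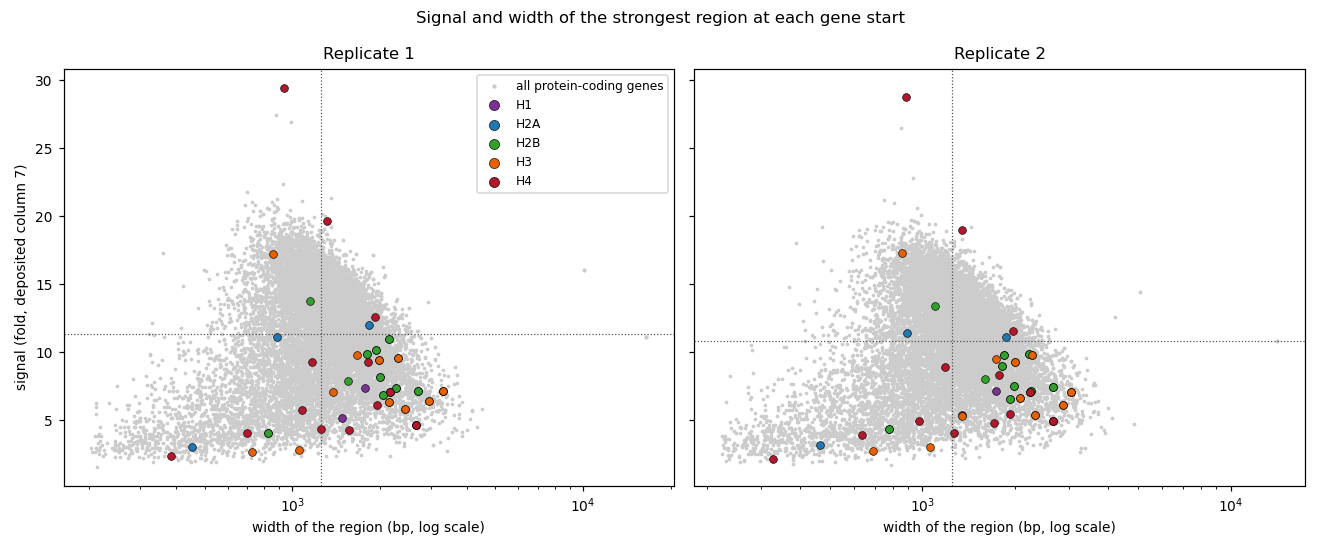
Signal (fold) against width (bp, log scale) of the strongest region within 1000 bp of a start, for each protein-coding gene with a region in both libraries (grey) and for 59 histone genes coloured by type, in each replicate. Dotted lines are the medians over all genes (11.4 and 10.8 for signal, 1259 and 1245 bp for width), and genes sharing a region lie on the same point.

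Wider regions covered more histone starts. In each library 41 regions lay within 1000 bp of a histone start: 25 served 1 gene, 12 served 2 and 4 served 3. Regions covering a single start numbered 19 and had a median width of 1253 bp in replicate 1 and 1264 bp in replicate 2. These widths were close to the medians over all genes, 1259 bp and 1245 bp. Those covering 2 or more starts numbered 16, with median widths of 2165 bp and 2225 bp. Their median signals were 6.09 and 5.43 for 1 start, and 7.12 and 7.13 for 2 or more. A count of starts inside a region rises with its width by construction.

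The libraries gave nearly the same values at each gene. The log2 ratio of signal, replicate 1 to replicate 2, had a median of 0.03 and an SD of 0.10 over the 59 histone genes, and a median of 0.06 and an SD of 0.16 over all 14204 genes with a region. It ran from −0.17 at Hist1h4h to 0.41 at Hist2h3c1, whose signal was 7.06 in replicate 1 and 5.31 in replicate 2. The plot of signal by gene shows the replicates side by side, where signals ran from 2.38 at Hist1h4k to 29.5 at Hist1h4m in replicate 1.

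**Figure D2:**
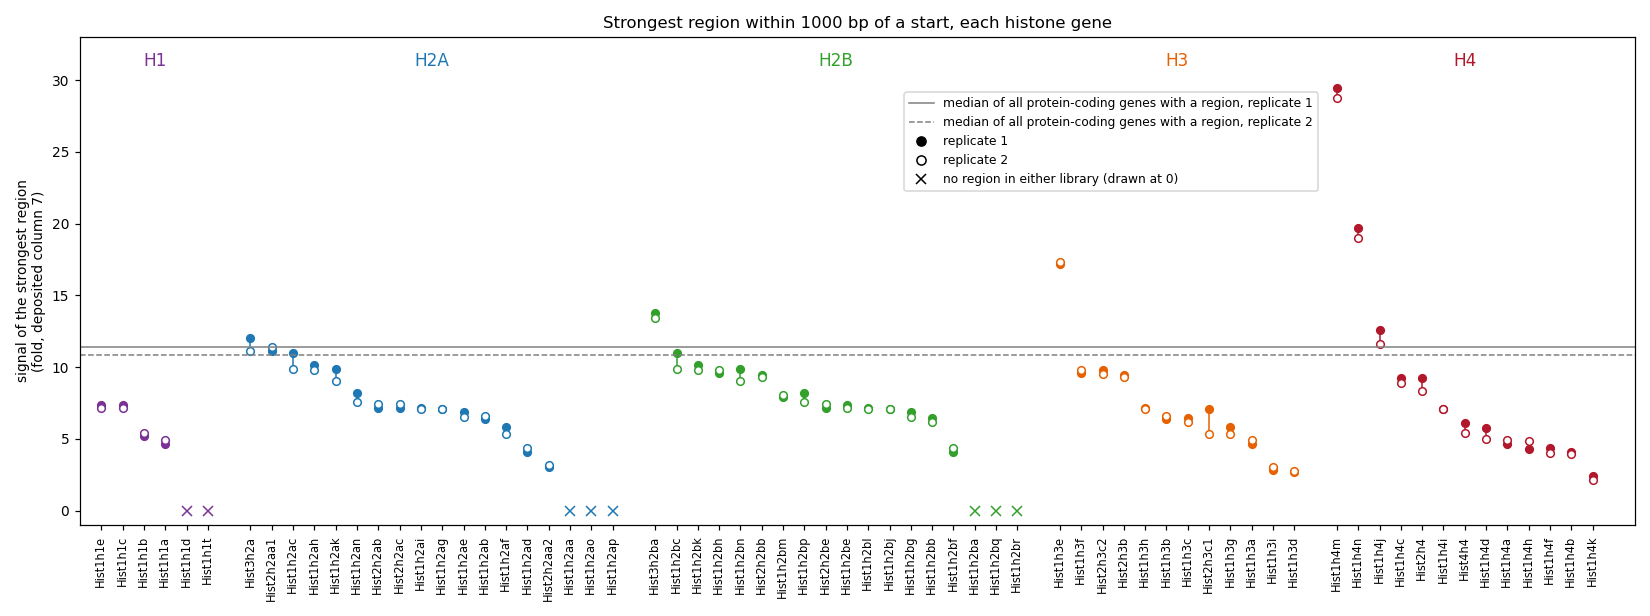
Signal (fold) of the strongest region within 1000 bp of a start for each of the 67 histone genes, grouped by type and ordered by mean, with filled circles for replicate 1, open circles for replicate 2 and crosses for the 8 genes with no region. Grey lines mark the medians over all genes with a region (11.4 and 10.8), and 52 of the 59 histone genes lie below these lines in both libraries.

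Linker histone genes had moderate signal. Hist1h1e had a signal of 7.38 in replicate 1 and 7.15 in replicate 2, and Hist1h1c had 7.39 and 7.13. Hist1h1b was lower, at 5.18 and 5.41. Their summits lay 1214, 730 and 933 bp past the start in replicate 1, and 1214, 691 and 1085 bp past it in replicate 2, the last of these genes being 743 bp long. Hist1h1a had a region over its own start with signals of 2.92 and 2.88, and its strongest within 1000 bp, at 4.67 and 4.93, was the region of its neighbours Hist1h3a and Hist1h4a. At Hist1h1d no region lay near the GENCODE start, but the RefSeq start 1770 bp away lay within a region with signals of 5.97 and 5.82 and widths of 1595 bp and 1618 bp. So all 5 somatic H1 genes had a region at the start given by 1 annotation or the other. The 5 all fell below the gene medians of 11.4 and 10.8. Hist1h1t, the H1 of male germ cells, had none within 1000 bp.

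H2A genes with a region numbered 15 of 18, with signals from 3.02 to 12.02 in replicate 1 and from 3.15 to 11.4 in replicate 2. The highest were Hist3h2a at 12.02 and 11.1, Hist2h2aa1 at 11.1 and 11.4, and Hist1h2ac at 11 and 9.86. The lowest were Hist1h2af at 5.82 and 5.35, Hist1h2ad at 4.05 and 4.34, and Hist2h2aa2 at 3.02 and 3.15. The last is a copy of Hist2h2aa1, with which it shares 55.5% of the 50-base words of its start window. Its region stopped 97 bp short of the GENCODE start in replicate 1 and 110 bp in replicate 2. Its RefSeq start, 98 bp upstream of the GENCODE start, lay inside the region in replicate 1 and just outside it in replicate 2. The 9 H2A genes between these groups had mean signals from 6.48 to 9.97.

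H2B genes had a region at 15 of 18, with a median signal of 7.89 and 7.54. The highest were Hist3h2ba at 13.8 and 13.4, Hist1h2bc at 11 and 9.86, sharing its region with Hist1h2ac, and Hist1h2bk at 10.2 and 9.79, sharing with Hist1h2ah. The lowest were Hist1h2bf at 4.05 and 4.34, Hist1h2bb at 6.43 and 6.15, and Hist1h2bg at 6.84 and 6.56. The 9 others had mean signals from 7.07 to 9.68. Summits of H2B regions lay upstream of the start at 14 of the 15 in each library, at a median of −142 bp and −98 bp relative to it. The exception was Hist1h2bg in replicate 1 and Hist1h2bm in replicate 2. Hist1h2be is a special case. It drew its signal of 7.38 and 7.15 from the region of Hist1h1e, where GENCODE places a start. The other RefSeq start, 35154 bp away toward the far end of its annotated span, had a region with signals of 5.65 and 5.58. The stem-loop of Hist1h2be, 30 bases after its coding end, lay inside this second region. The start in use was not tested, and the H2B values here keep the first region. The octamer did not sort the H2B genes by signal: the 7 genes with it and a region had mean signals from 6.29 to 10.4, and the 8 without it from 4.19 to 13.6. Hist1h2be counted among the 8, though the 250 bases before its other RefSeq start held 1 octamer match.

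H3 genes all had a region, 12 of 12. Hist1h3e stood apart with 17.2 and 17.3 in a region only 860 bp wide in both libraries, at the 96.2nd and 98.3rd percentiles of signal. Next were Hist1h3f at 9.59 and 9.77, sharing with Hist1h2bh, and Hist2h3c2 at 9.77 and 9.53. The lowest were Hist1h3g at 5.82 and 5.35, Hist1h3a at 4.67 and 4.93, Hist1h3i at 2.84 and 3.01, and Hist1h3d at 2.66 and 2.73. The 5 others, Hist2h3c1, Hist1h3c, Hist1h3b, Hist1h3h and Hist2h3b, had mean signals from 6.18 to 9.36. The regions of Hist1h3e, Hist2h3c1, Hist2h3c2, Hist1h3i and Hist1h3d each served that gene alone, so the highest and the lowest H3 genes were both without a histone partner. The summits of Hist1h3i and Hist1h3d lay 7 bp upstream of the start in replicate 1. Of the upstream stretches printed above, that of Hist1h3e held 4 CCAAT and no TATAAA matches, and that of Hist1h3d held 3 of each.

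H4 genes also had a region at 13 of 13 and spanned the widest range of signal, from 2.38 to 29.5 in replicate 1 and from 2.16 to 28.8 in replicate 2. Hist1h4m, at 29.5 and 28.8, had the highest signal of any protein-coding gene with a region in both libraries, and Hist1h4n followed among the histones at 19.7 and 19.0. Neither region reached the start: they began 94 and 113 bp past it at Hist1h4m, and 159 and 106 bp past it at Hist1h4n. Of the 50-base words inside them, only 9.76% and 10.4% at Hist1h4m and 20.5% and 19.8% at Hist1h4n occur at a single place in the genome. How the authors handled reads that fit several places was not given in the sources used here, and its part in these values was not tested. Hist1h4j came next, at 12.6 and 11.6. The rest ran from Hist2h4 at 9.27 and 8.34 and Hist1h4c at 9.26 and 8.89 down to Hist1h4f at 4.33 and 4.04, Hist1h4b at 4.09 and 3.91, and Hist1h4k at 2.38 and 2.16. The 5 between these, Hist1h4a, Hist1h4d, Hist1h4h, Hist1h4i and Hist4h4, had mean signals from 4.55 to 7.07. At the 10 H4 genes with a covered start, the summit of the strongest region lay a median of 31 bp past the start. At Hist1h4i that strongest region was the one of its neighbours, which did not cover its start and had its summit at −1813 bp.

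Hist1h4j and Hist1h4k show how far near-identical promoters can differ. Aligned at an offset of 14 bases, their RefSeq windows matched at 274 of 286 bases (95.8%). In the windows around the GENCODE starts TATAAA was present at both genes, though the stretch printed above for Hist1h4j holds no match. Yet the region at Hist1h4j was 1928 bp and 1963 bp wide with 12.6 and 11.6 fold, and that at Hist1h4k was 382 bp and 328 bp wide with 2.38 and 2.16 fold, and missed the start by 182 bp and 222 bp. In the 2001-base windows around the starts, 86.9% of 50-base words at Hist1h4j and 86.4% at Hist1h4k were found at a single place. Closer in they differed: in the 200 bp at the summit the share was 88.1% in both libraries at Hist1h4j, and 54.7% and 55.6% at Hist1h4k. The part of repeated words in the difference was not tested. Both genes stood between the first and the next H2A–H2B pairs of the same block.

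Divergent pairs, whose starts point away from each other at most 1000 bp apart, numbered 13: 12 of H2A with H2B and 1 of H2B with H3 (Hist1h2bh and Hist1h3f). Their starts lay 176 to 660 bp apart. At 10 of the 13 a single region covered both starts in both libraries, with median widths of 2102 bp and 2096 bp and median signals of 7.67 and 7.48. The summit lay between the starts at 9 of these 10 in each library, 8 of them in both. The exceptions were Hist1h2ae–Hist1h2bg, whose summit fell inside Hist1h2bg in replicate 1, and Hist2h2ac–Hist2h2be, whose summit fell inside Hist2h2ac in replicate 2. The widest was Hist1h2bl–Hist1h2ai, where 3303 bp and 3038 bp also took in Hist1h3h, and the narrowest was Hist1h2bf–Hist1h2ad, with 826 bp and 777 bp. Of the words inside the Hist1h2bf–Hist1h2ad region, 47.2% and 49.4% were found at a single place, the lowest shares among these 10 regions. Close to its summit the share was 93.0% in both libraries. The part of repetition in the width and signal of that region was not tested. The map of the pairs sets the regions on a common midpoint.

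**Figure D3:**
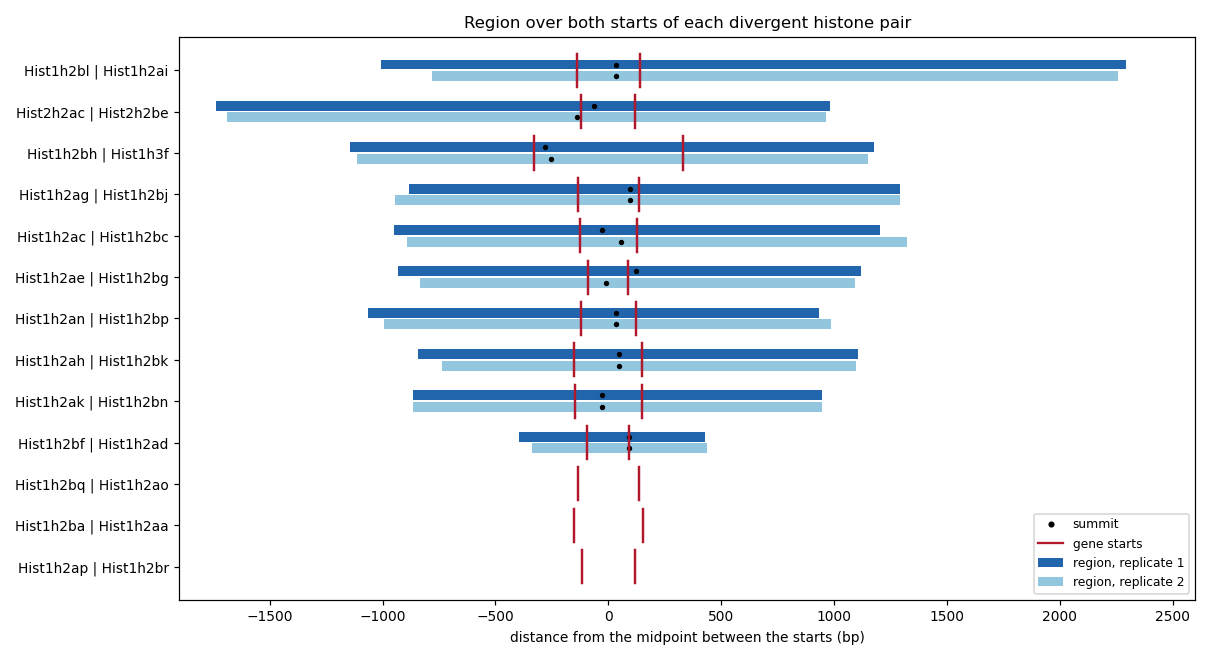
Extent of the region over each divergent pair, in bp from the midpoint between the 2 starts, with replicate 1 dark and replicate 2 light, summits as black dots and gene starts as red lines. The 3 pairs at the bottom had no region, and 10 pairs had a region over both starts.

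The 3 pairs with no region fall into different kinds. Hist1h2bq–Hist1h2ao and Hist1h2ap–Hist1h2br are copies: Hist1h2bq shares 97.7% of the 50-base words of its start window with Hist1h2br, and Hist1h2ao 96.1% with Hist1h2ap. At these 4 genes 0% of the words occur at a single place in the genome. The nearest regions lay 1375 to 1706 bp away, at Hist1h4m and Hist1h4n. Whether these promoters are closed or could not be read was not tested. The third pair is Hist1h2ba–Hist1h2aa, which encodes testis forms of H2B and H2A, and 93.1% of its words are found at a single place. Its nearest regions lay 35003 bp from the Hist1h2ba start in replicate 1 and 8815 bp in replicate 2, with −log10 q of 7.11 and 8.07.

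The testis histones as a list, Hist1h1t, Hist1h2aa and Hist1h2ba, had no region in either library at any of 3 genes, where 65% of all protein-coding genes had one. They were the only genes without a region among those with at least 90% of words at a single place, other than Hist1h1d with its alternative start. Hist1h1t stood 1707 bp and 1710 bp from the region of Hist1h4c, which had signals of 9.26 and 8.89. The motifs were present at these promoters too: Hist1h1t has an H1 box and a CCAAT match, and the Hist1h2ba window has at least 1 match to each of the 4 motifs. No DNA methylation or transcript was measured here.

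The histone genes were also described by how much of their start window is repeated. The window of 1000 bp on each side of the start held words at a single place for at least 90% of its length at 19 genes, of which 15 had a region. Of the 38 genes with 50 to 90%, all 38 had a region and 37 had the start covered. Of the 6 with some but under 50%, Hist1h4m, Hist1h4n, Hist2h3c1, Hist2h3c2, Hist2h2aa1 and Hist2h2aa2, all 6 had a region but only Hist2h2aa1 had it over the GENCODE start. With Hist1h4k, described above, this made 6 genes whose region missed the GENCODE start in both libraries, and the DNA between start and region differed among them. Of the words wholly inside that gap, 0% were found at a single place at Hist2h3c1, whose region began 276 and 364 bp past the start, and 0% at Hist2h3c2, where it began 214 and 193 bp past it. The shares were 24.5% and 47.4% at Hist1h4n, 51.1% and 39.3% at Hist1h4k, 80% and 56.3% at Hist1h4m, and 83.3% and 65.6% at Hist2h2aa2. At Hist1h4m and Hist2h2aa2 the gap held only 45 to 64 words. The gap at Hist2h2aa2 depended on the annotation, since its RefSeq start lay inside the region in replicate 1. So most words of the gap were repeated elsewhere at some of the 6 genes and found at a single place at others. The part of repetition in the missed starts was not tested.

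The clusters as a whole were denser in regions than the genome. The Hist1 cluster with 20 kb on each side (chr13:21695763-23954851) held 114 regions in replicate 1 and 102 in replicate 2 over 2259 kb. They fell unevenly: the genes lie in 4 blocks parted by gaps of over 100 kb. Inside the blocks there were 11.4 and 10.5 regions per 100 kb, covering 14.2% and 13.5% of the bases. Between them there were 3.11 and 2.71 per 100 kb and 2.74% and 2.43%. The autosomes as a whole had 3.10 and 2.96 per 100 kb and 2.31% and 2.23%. The blocks were drawn around histone starts, and 31 of their 60 regions in replicate 1 and 31 of 55 in replicate 2 lay at such starts. Of the 46 protein-coding genes between the blocks, 36 encode vomeronasal or olfactory receptors and 7 had a region in both libraries.

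The blocks differed among themselves. The first, with 18 histone genes, had 15 and 14 regions and included all 4 copied H2A and H2B genes. The next, with the 5 genes Hist1h2ah, Hist1h2bk, Hist1h4i, Hist1h2ag and Hist1h2bj, was the most densely covered, at 24.6% and 23.9% of its bases. Hist1h4i had a region of its own start with signals of 4.02 and 3.87, below the 7.06 and 7.07 of the neighbouring Hist1h2ag–Hist1h2bj region. The third, with 29 genes, had 37 and 32 regions. The fourth, which holds only the testis pair, had 0 and 1 region in 41.1 kb. Outside chromosome 13, the Hist2 block (chr3:96199865-96290132) had 13 and 14 regions, Hist3 (chr11:58928920-58976830) 5 in each and Hist4 (chr6:136781553-136824415) 4 in each. The single Hist4 gene, Hist4h4, had signals of 6.09 and 5.43. Besides Hist2h4 and those named above, the Hist2 genes were Hist2h2ab, Hist2h2ac and Hist2h2be, which shared 1 region at 7.13 and 7.42, and Hist2h3b with Hist2h2bb, which shared another at 9.43 and 9.29.

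**Figure D4:**
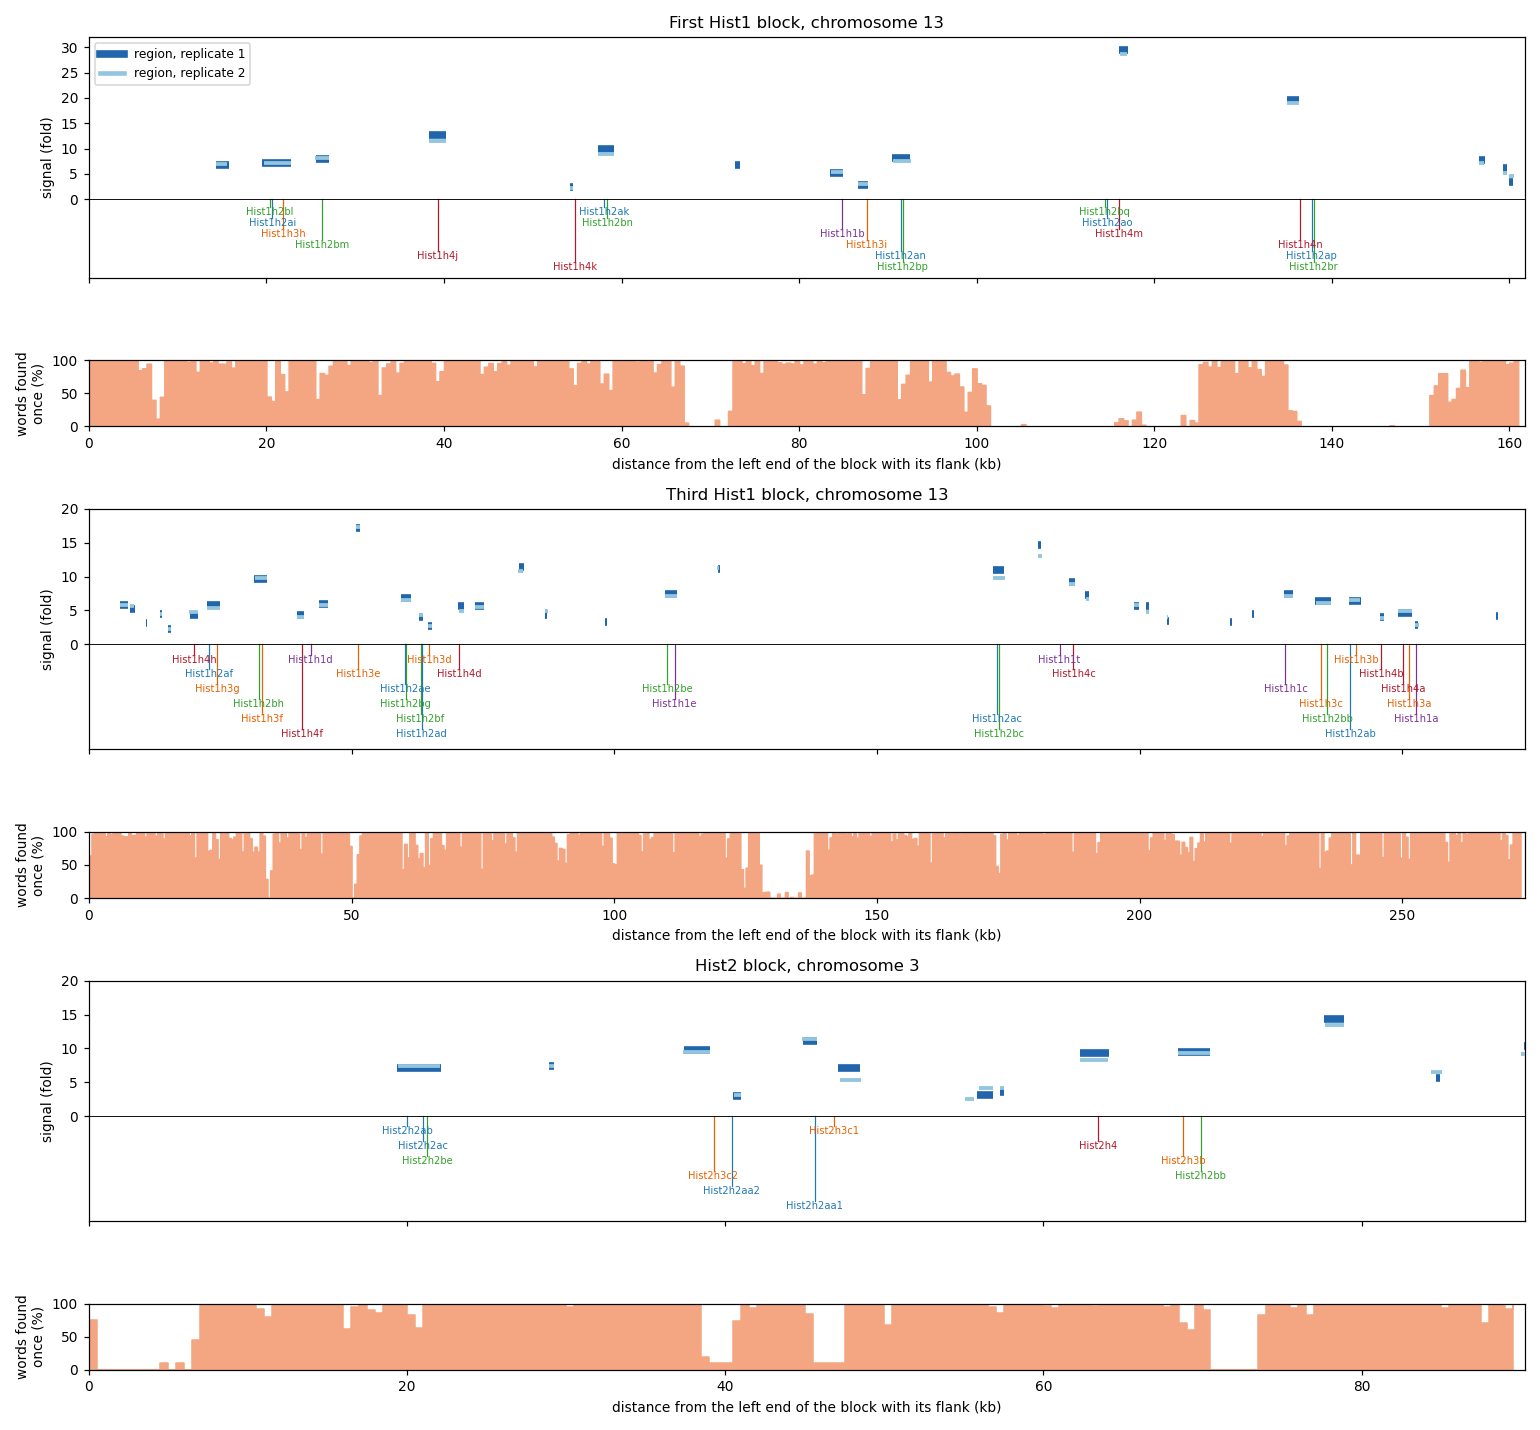
Regions of both libraries (bars, height is the signal in fold) and histone gene starts (lines with names, coloured by type) along the first and the third Hist1 block and the Hist2 block, in kb from the block's left end with its flank, above the share of 50-base words found at a single place in steps of 500 bases. Hist1h2bq, Hist1h2ao, Hist1h2ap and Hist1h2br sit where that share is 0% and have no region, and the highest bars of the first block, at Hist1h4m and Hist1h4n, sit beside them.

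Several strong regions inside the blocks lay at no annotated start. One with signals of 14.7 and 13.03 lay inside the long annotated span of Hist1h2bc, 3711 bp from the Hist1h1t start. Another, at 11.5 and 10.8, lay inside Hist1h2be. In the Hist2 block a region at 14.3 and 13.5 lay 8440 bp (replicate 1) from the Hist2h2bb start. These were higher than the median histone promoter of 7.12 and 7.10. Across the Hist1 cluster, regions at histone starts had a median signal of 6.84 and 6.62, and those at no start 5.65 and 5.74.

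Genes that serve histone supply were compared as a list of 28: Npat, Slbp, the U7 proteins Lsm10 and Lsm11, cleavage factors, Hinfp, cyclin E and chaperones. All 28 had a region, against 65% of all protein-coding genes, with median signals of 12.01 and 11.9 and median widths of 1453 bp and 1393 bp. The strongest were Lsm10, a ring protein of the U7 particle that trims histone messages, at 17.8 and 18.0, and Hinfp, an activator of H4 genes, at 17.8 and 17.1. Npat had 14.8 and 13.6 and Slbp 12.5 and 12.6. The lowest of the 28 was 7.22 in replicate 1 and 7.41 in replicate 2, above the histone median in both.

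A list of histone variant genes named apart from the Hist1 to Hist4 series had a region at 12 of 16, against 65% of all protein-coding genes. Among them H2afj lies within the Hist4 cluster window, with signals of 5.81 and 6.14, and H2afx is known to make stem-loop messages too. The strongest were H2afv, an H2A.Z form, at 17.3 and 16.7, and Cenpa, the centromeric H3, at 14.3 and 14.1. Median signal was 9.52 and 9.24, between that of the clustered genes and that of the supply list. The 4 with none were H1fnt and Hils1, H1 forms of spermatids, and H2afb1 and H2afb3, H2A forms of the testis. At H2afb1 and H2afb3, 73.7% and 71.9% of the words of the start window were found at a single place. So germ-cell histones without a region numbered 7 over both lists, while the oocyte H1 gene H1foo had a region at 8.75 and 7.48.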

How the data were processed

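Peaks of 2 ATAC-seq libraries of mouse T cells were used as deposited by the authors, in narrowPeak columns on mm10 per the labels. The deposited signal (column 7) was read as a ratio, fold over background, from its values. The authors' −log10 p and −log10 q values were taken as deposited, and the deposited score of column 5 was not used. The sources used here name no aligner, caller, version, threshold, read length or depth. Of 78104 and 74733 deposited peaks, only those on the numbered and sex chromosomes entered the analysis.

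Starts were 54361 starts of protein-coding transcripts in GENCODE mouse release 21. A word was a stretch of 50 bases, counted on both strands of the primary assembly; read length being unknown, this describes repetition and is no model of the alignment. Percentiles are among genes with a region in both libraries. Divergent pairs were neighbouring members at most 1000 bp apart, and blocks were parted by gaps over 100 kb. Named were all members without a region, all H1 and testis genes, the 3 strongest and 3 weakest of each core type, members outside chromosome 13, the pairs with the widest and narrowest region, and from each list the 2 strongest and those without a region; the motif and copy examples, the regions at no start and a few others were chosen after their values were seen. One item of the lists is not reported here. The members and lists were chosen with earlier results of these data known. Python 3.11.15, numpy 2.4.6, pandas 2.3.3 and numba 0.67.0 were used, and the code was tested on simulated data. The alternatives were stricter peak sets, other distances and flanks, each region counted 1 time, copied windows left out and each library alone. Starts from RefSeq were an alternative chosen after seeing the data.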

Additional observations from a re-analysis of the deposited data

How the results depend on the processing

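The count of 59 histone genes with a region ran from 47 among the 50000 strongest regions to 65 with edges within 2000 bp; a summit within 1000 bp gave 51 and RefSeq starts, covering 62 genes, gave 55. The mean over libraries of the median signal, 7.11, became 7.40 under both of the first 2 settings and 7.13 with the summit rule, which also took the median width from 1958 to 1839 bp. Each library alone gave 59 genes, and median signals from 7.10 to 7.12. Without flanks Hist3 had 2 regions and Hist4 had 1, and with flanks of 50 kb 14.5 and 7.5. The 50000 strongest regions left 68.5 of 108 in the Hist1 cluster and 4.66% of cluster bases covered in place of 5.87%. With each region counted 1 time, median signal was 5.29 for H1, 7.87 for H2A, 8.36 for H2B and 5.85 for H3. With start windows of at least 90% single-place words it was 11.6 for H2A, resting on 1 gene, and 7.40 for H2B, on 3, and no H3 gene was left. Of 76 alternative values, 60 stayed within their limits. No paired analysis was possible because there was 1 group. Unknown depth and 2 libraries limit all values.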
